A study of Saccharomyces cerevisiae with 3 samples.

Results

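The 5.8S rRNA of Saccharomyces cerevisiae was analyzed in PAR-CRAC pileups, as all rows of the deposited files that carried the name RDN58-2. It made up 158 of the 6858 nucleotides of RDN37, the precursor that also contains 18S and 25S rRNA, and was 1 of 8 rDNA segments listed for each library. Of its nucleotides 44 were T, against 1920 in all of RDN37, so that T made up 27.8% of 5.8S and 28.0% of RDN37.

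The libraries came from the yeast strain BY4741. 2 libraries were from cells expressing Get4 with a C-terminal His-Tev-ProtA tag (HTP) from the genomic locus of GET4 (Get4-HTP 1 and Get4-HTP 2), and 1 library was from wild type cells without a tagged protein (WT). All cells were grown with 4-thiouracil and irradiated at 365 nm, so that 4-thiouridine (4sU) in RNA crosslinked to nearby protein. The paper ascribes T-C substitutions in reads to 4sU, and they are taken here as marks of possible crosslinks. WT reads, from cells without a tagged protein, carried them as well. Get4 forms with Get5 an adaptor complex of the pathway that targets tail-anchored membrane proteins, and the experiment asked where on the ribosome it contacts rRNA.

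5.8S rRNA is a component of the large ribosomal subunit, in which it is base paired to 25S rRNA near its 5′ and 3′ ends. It is transcribed between 18S and 25S as part of one precursor and is released by processing of the internal transcribed spacers ITS1 and ITS2. In yeast the mature 5′ end occurs in a short and a long form.

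The sequence is shown because the results below turn on the T positions at which 5.8S was substituted. It was read from the deposited pileups, 5′ to 3′. Capitals mark each T that was among the 5 positions of 5.8S with the most substitutions in at least 1 library.

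5.8S rRNA: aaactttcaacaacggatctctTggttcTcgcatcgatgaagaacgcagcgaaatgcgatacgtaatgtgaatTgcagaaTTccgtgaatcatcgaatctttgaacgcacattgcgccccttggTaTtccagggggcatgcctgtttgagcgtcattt

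These were nucleotides 23, 29, 74, 81, 82, 125 and 127, counted from the 5′ end of 5.8S. RefSeq lists the gene as YNCL0023C on chromosome XII. It also lists RDN58-1 (YNCL0014C) with the same length, and reads from the copies of the rDNA repeat cannot be told apart here.

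The files listed 614992 mapped reads for Get4-HTP 1, 933943 for Get4-HTP 2 and 107659 for WT. The Get4-HTP libraries had been amplified with fewer PCR cycles than the WT library, so that tag and amplification cannot be told apart. The headers gave Get4-HTP 1 and WT the same run code and Get4-HTP 2 another, so that a comparison within a run code is that of Get4-HTP 1 with WT. A single stretch of 25S, nucleotides 1391 to 1454, took up 20.1% of all RDN37 hits in Get4-HTP 1, 50.8% in Get4-HTP 2 and 3.62% in WT. Since such a peak lowers the share of every other region, the 5.8S values are given as a share of RDN37 hits outside these 64 nucleotides, and the other scales are given beside them. With 1 WT library no test between the strains was possible, and differences are described against the difference between the Get4-HTP libraries and against counting error.

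5.8S was covered in all libraries. It received 1344 reads in Get4-HTP 1, 1162 in Get4-HTP 2 and 869 in WT, and these gave 46802, 39371 and 31179 hits (reads over a nucleotide, summed over all nucleotides). A read covered a mean of 34.8 nucleotides of 5.8S in Get4-HTP 1, 33.9 in Get4-HTP 2 and 35.9 in WT. The number of substitutions was 1332 in Get4-HTP 1, 1155 in Get4-HTP 2 and 859 in WT, and thus amounted to 98.8% to 99.4% of the reads, since the authors had filtered the reads for exactly 1 T-C mutation.

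How much of the rRNA signal fell on 5.8S depended on the scale. Outside the 25S stretch, 5.8S held 6.41% of the RDN37 hits in Get4-HTP 1 and 7.98% in Get4-HTP 2 (mean 7.20 ± 1.11%, SD, n = 2), against 8.03% in WT. The ratio to WT was 0.799 for Get4-HTP 1 and 0.995 for Get4-HTP 2, and the mean differed from WT by less than the Get4-HTP libraries differed from each other. By substitutions, the shares and their 95% Wilson intervals were 5.77% (5.47 to 6.07%) in Get4-HTP 1, 7.70% (7.29 to 8.14%) in Get4-HTP 2 and 6.89% (6.46 to 7.35%) in WT. By this measure Get4-HTP 1 lay below WT with separate intervals, and Get4-HTP 2 lay above WT with overlapping intervals. The intervals throughout cover counting error only and take each collapsed read as a molecule of its own.

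On the other scales 5.8S was lower in both Get4-HTP libraries. Of all RDN37 hits, with the 25S stretch included, 5.8S held 5.12% in Get4-HTP 1 and 3.93% in Get4-HTP 2 (mean 4.53 ± 0.847%, SD, n = 2), against 7.74% in WT. Per 1000000 mapped reads it received 76102 hits in Get4-HTP 1, 42156 in Get4-HTP 2 and 289609 in WT, which corresponds to ratios of 0.263 and 0.146. Most of RDN37 was lower on this scale: the median 10-nucleotide bin of RDN37 was at 0.323 times WT (Get4-HTP 1) and 0.125 times WT (Get4-HTP 2), whereas outside the stretch it was at 0.983 and 0.851 times. The 5.8S reads made up 0.219% of mapped reads in Get4-HTP 1 (0.207 to 0.231%), 0.124% in Get4-HTP 2 (0.117 to 0.132%) and 0.807% in WT (0.755 to 0.862%).

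Relative to 18S, the rRNA of the small subunit, 5.8S hits amounted to 20.01% of the 18S hits in Get4-HTP 1, 21.3% in Get4-HTP 2 and 32.1% in WT. Outside the stretch, the share of 18S itself was 1.28 and 1.5 times that of WT in Get4-HTP 1 and Get4-HTP 2, while the share of the remaining 25S was 0.927 and 0.824 times that of WT. The ratio of 5.8S thus lay below that of 18S in both libraries. It lay below that of the remaining 25S in Get4-HTP 1 and above it in Get4-HTP 2.

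The distribution of hits along 5.8S differed between the strains. In the plot of coverage by library, each profile had 3 blocks separated by low coverage near nucleotides 47 and 110. In both Get4-HTP libraries the middle block was the highest and the 3′ block exceeded the 5′ block, more so in Get4-HTP 2. In WT the 5′ block and the middle block were about equally high, and the 3′ block was the lowest.

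**Figure D1:**
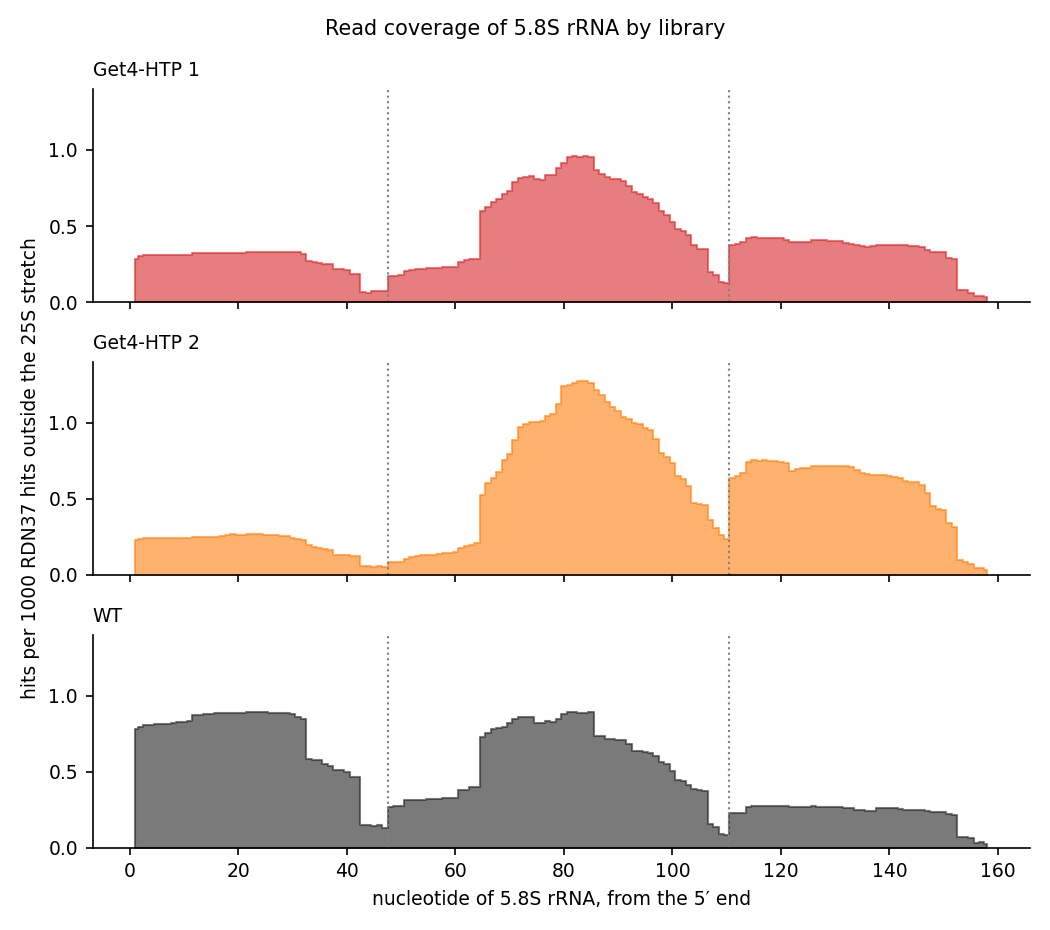
Hits at each nucleotide of 5.8S rRNA (x axis, from the 5′ end) per 1000 RDN37 hits outside nucleotides 1391 to 1454 of 25S (y axis), for Get4-HTP 1, Get4-HTP 2 and WT from top to bottom; dotted lines separate the 5′, middle and 3′ blocks. The highest nucleotide is 84 in Get4-HTP 1 and, tied with 83, in Get4-HTP 2, while in WT the highest are 22 to 24.

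Nucleotide 84 was the highest in both Get4-HTP libraries, with 700 hits in Get4-HTP 1 and with 627 hits in Get4-HTP 2, where nucleotide 83 had the same number. In WT nucleotides 22 to 24 were the highest, with 347 hits each, and nucleotide 81 in the middle block reached 346 hits or 99.7% of this maximum. Per 1000 RDN37 hits outside the stretch these maxima were 0.959 in Get4-HTP 1, 1.27 in Get4-HTP 2 and 0.893 in WT. None of them was a leading peak of RDN37: the 5.8S maximum reached 20.6% of the highest nucleotide of RDN37 outside the stretch in Get4-HTP 1, 27.1% in Get4-HTP 2 and 28.4% in WT. The mean position of the hits was nucleotide 82.0 in Get4-HTP 1, 92.3 in Get4-HTP 2 and 62.1 in WT.

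Runs of nucleotides above 20% of the 5.8S maximum spanned nucleotides 1 to 40, 51 to 107 and 111 to 152 in Get4-HTP 1. In Get4-HTP 2 they spanned 18 to 28, 65 to 109 and 111 to 152, and in WT 1 to 42, 48 to 106 and 111 to 152. At this limit the first run was thus the shortest in Get4-HTP 2, and the last run was the same in all libraries. The peak of the first run reached 242 hits at nucleotide 26 in Get4-HTP 1, 133 hits at nucleotide 19 in Get4-HTP 2 and 347 hits at nucleotide 22 in WT. The peak of the last run reached 310 hits at nucleotide 115 in Get4-HTP 1, 372 hits at nucleotide 115 in Get4-HTP 2 and 107 hits at nucleotide 118 in WT. At a limit of 50% of the maximum, Get4-HTP 1 retained only the run 65 to 101, Get4-HTP 2 the runs 67 to 101 and 111 to 142, and WT the runs 1 to 42 and 65 to 100. At a limit of 10%, the first run spanned 1 to 42 in Get4-HTP 1, 1 to 40 in Get4-HTP 2 and 1 to 109 in WT. The length of the first run thus depended on the limit.

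The blocks, bounded by the lowest interior nucleotides after the profiles had been seen, were compared as shares of the 5.8S hits, which are independent of the scale. The 5′ block (nucleotides 1 to 47, with 12 T positions) held 20.1% of the hits in Get4-HTP 1 and 12.3% in Get4-HTP 2 (mean 16.2 ± 5.50%, SD, n = 2), against 41.7% in WT. The middle block (48 to 110, with 16 T positions) held 54.4% in Get4-HTP 1 and 53.0% in Get4-HTP 2 (mean 53.7 ± 1.01%, SD, n = 2), against 44.6% in WT. The 3′ block (111 to 158, with 16 T positions) held 25.5% in Get4-HTP 1 and 34.7% in Get4-HTP 2 (mean 30.1 ± 6.50%, SD, n = 2), against 13.7% in WT. In each block both Get4-HTP libraries lay on the same side of WT, and for the 5′ and 3′ blocks the distance of Get4-HTP 2 from WT was larger than that of Get4-HTP 1.

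**Figure D2:**
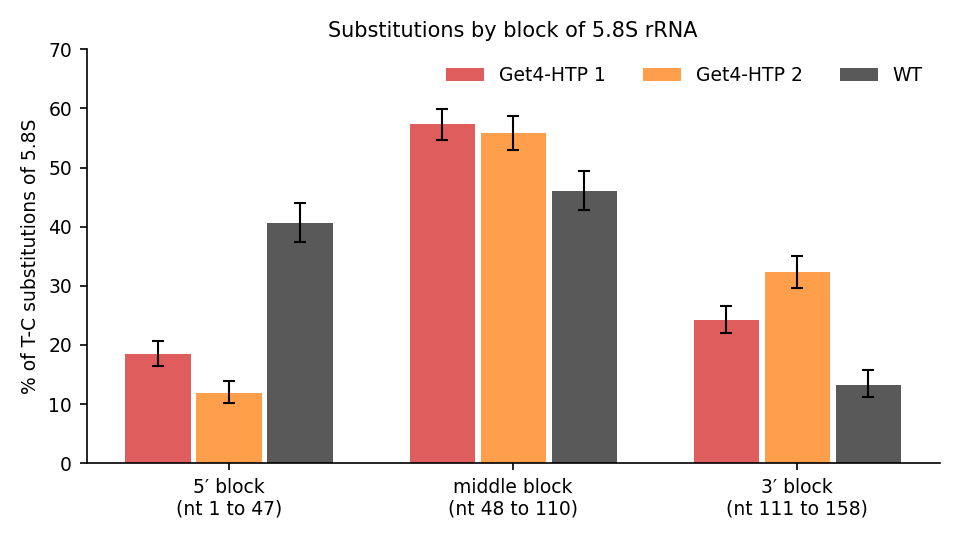
Share of the T-C substitutions of 5.8S rRNA (y axis, percent) in its 5′, middle and 3′ blocks (x axis) for Get4-HTP 1, Get4-HTP 2 and WT, with 95% Wilson intervals as error bars. The 5′ block holds 18.5% and 11.9% in the Get4-HTP libraries and 40.6% in WT, and in no block does an interval of Get4-HTP overlap that of WT.

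Substitutions gave the same order as hits. The 5′ block held 18.5% of them in Get4-HTP 1 (16.5 to 20.6%), 11.9% in Get4-HTP 2 (10.1 to 13.9%) and 40.6% in WT (37.4 to 43.9%). The middle block held 57.3% in Get4-HTP 1 (54.6 to 59.9%), 55.8% in Get4-HTP 2 (53.0 to 58.7%) and 46.1% in WT (42.8 to 49.4%), and the 3′ block 24.2% (22.02 to 26.6%), 32.3% (29.7 to 35.05%) and 13.3% (11.2 to 15.7%) in the same libraries. Each Get4-HTP interval was separated from that of WT. Between the Get4-HTP libraries, the intervals of the middle block overlapped and those of the 5′ and 3′ blocks did not.

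The mean coverage per nucleotide shows the same shift without the difference in block length. The ratio of the 5′ block to the 3′ block was 0.804 in Get4-HTP 1, 0.362 in Get4-HTP 2 and 3.10 in WT. As a share of RDN37 outside the stretch, the 5′ block had ratios to WT of 0.385 (Get4-HTP 1) and 0.294 (Get4-HTP 2), the middle block of 0.975 and 1.18, and the 3′ block of 1.48 and 2.51. The near unchanged total of 5.8S in Get4-HTP 2 was therefore the sum of a lower 5′ block and of higher middle and 3′ blocks. Relative to mapped reads all blocks were lower than in WT, the 5′ block at 0.127 and 0.0430 times WT, the middle block at 0.321 and 0.173 times and the 3′ block at 0.487 and 0.367 times, so that the direction of the 3′ block depends on the scale and the order of the blocks does not.

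For comparison with the other rRNAs, each rRNA was divided into 3 parts of equal length. The first part of 5.8S held 21.9% in Get4-HTP 1, 13.0% in Get4-HTP 2 and 43.9% in WT. The first part of 18S held 61.0% of the 18S hits in Get4-HTP 1, 64.8% in Get4-HTP 2 and 60.5% in WT. For 5S, which is transcribed separately, these values were 22.6%, 37.8% and 19.1%, so that Get4-HTP 2 was above WT there and below it in 5.8S. The first part of 25S held 13.3% of the 25S hits in Get4-HTP 1, 12.2% in Get4-HTP 2 and 28.5% in WT. The 25S hits include the stretch from 1391 to 1454, which lies in the middle part of 25S. This stretch held 183645 of the 618351 hits of 25S in Get4-HTP 1, 509650 of 770744 in Get4-HTP 2 and 14594 of 264192 in WT. It thus lowered the first part of 25S by a different amount in each library, and these values cannot be set beside those of 5.8S.

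In bins of 10 nucleotides, 5.8S was divided into 16 bins, and a bin was counted when its share outside the stretch was at least 2 times or at most 0.5 times that of WT in both Get4-HTP libraries. 4 bins were lower in both, and these were the first 4, covering nucleotides 1 to 40. Of all RDN37 bins 9.82% were lower in both. Neighbouring bins and nucleotides share reads, so the bins and nucleotides counted here and below are not independent of each other. The first bin had a mean of 223 hits per nucleotide in Get4-HTP 1, 118 in Get4-HTP 2 and 315 in WT, with ratios of 0.379 and 0.297. No bin of 5.8S was higher in both libraries, against 5.57% of all RDN37 bins. With the stretch included in RDN37, 5 bins of 5.8S were lower in both, beside 19.4% of all bins, and relative to mapped reads 15 were lower, beside 78.4% of all bins, so that the count on the last scale is near the background.

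**Figure D3:**
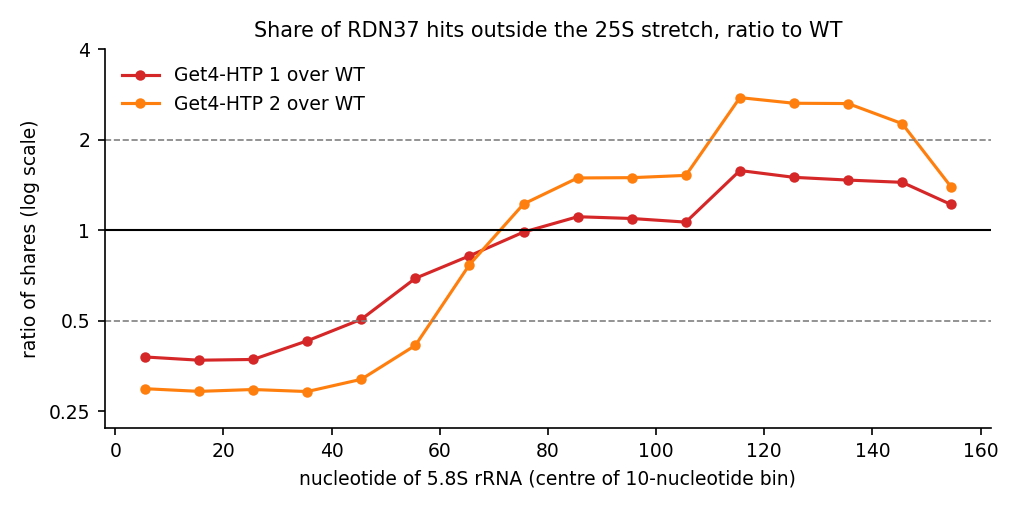
Ratio to WT (y axis, log scale) of the share of RDN37 hits outside the 25S stretch, for each 10-nucleotide bin of 5.8S rRNA (x axis), in Get4-HTP 1 and Get4-HTP 2; dashed lines mark 0.5 and 2. The ratios of both libraries lie below 0.5 over nucleotides 1 to 40, cross 1 between nucleotides 61 and 90 and are above 1 beyond nucleotide 80.

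In both libraries the ratio was lowest within nucleotides 1 to 40 and highest in the bin that starts at nucleotide 111. It was below 1 in both Get4-HTP libraries at 70 of the 158 nucleotides, which were nucleotides 1 to 70, and above 1 in both at 77 nucleotides, all of them between 78 and 158. Over nucleotides 111 to 150 the ratios of the bins were 1.58, 1.5, 1.47 and 1.44 in Get4-HTP 1 and 2.76, 2.64, 2.64 and 2.26 in Get4-HTP 2. These 4 bins passed the limit in Get4-HTP 2 alone, in which 14.2% of all RDN37 bins did. In Get4-HTP 1 no bin of 5.8S was higher by the limit, beside 8.65% of all bins. Taken alone, Get4-HTP 1 had 4 lower bins in 5.8S, beside 13.5% of all RDN37 bins, and Get4-HTP 2 had 6, beside 27.6%.

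The shapes of the profiles were compared by the correlation of log2 shares over the 158 nucleotides, which is a description only, since neighbouring nucleotides share reads. Pearson's r was 0.909 between Get4-HTP 1 and Get4-HTP 2, 0.708 between Get4-HTP 1 and WT, and 0.396 between Get4-HTP 2 and WT. Spearman's rho was 0.959, 0.365 and 0.237 for these pairs, so that the likeness of Get4-HTP 1 to WT was much weaker by ranks. By Pearson's r, the same pairs gave 0.896, 0.856 and 0.745 over 18S. For 5S, r was 0.865, 0.987 and 0.790, so that there Get4-HTP 1 was closer to WT than to Get4-HTP 2. For the remaining 25S the values were 0.659, 0.853 and 0.614, with the same order as for 5S.

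The T positions at which the reads were substituted differed as well. Position 82 held the largest share of the 5.8S substitutions in both Get4-HTP libraries, with 16.4% in Get4-HTP 1 and 23.2% in Get4-HTP 2, against 9.08% in WT. Position 81 held 16.2%, 18.2% and 8.03% in these libraries. Position 74 held 10.4% in Get4-HTP 1, 5.02% in Get4-HTP 2 and 16.1% in WT, where it was first. Below positions 81 and 82 in both Get4-HTP libraries, it stood above them in WT, and the outer blocks differed in the direction of their coverage. Position 29 in the 5′ block held 5.56% in Get4-HTP 1, 4.16% in Get4-HTP 2 and 14.1% in WT, and position 127 in the 3′ block held 8.26%, 16.4% and 4.54%.

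**Figure D4:**
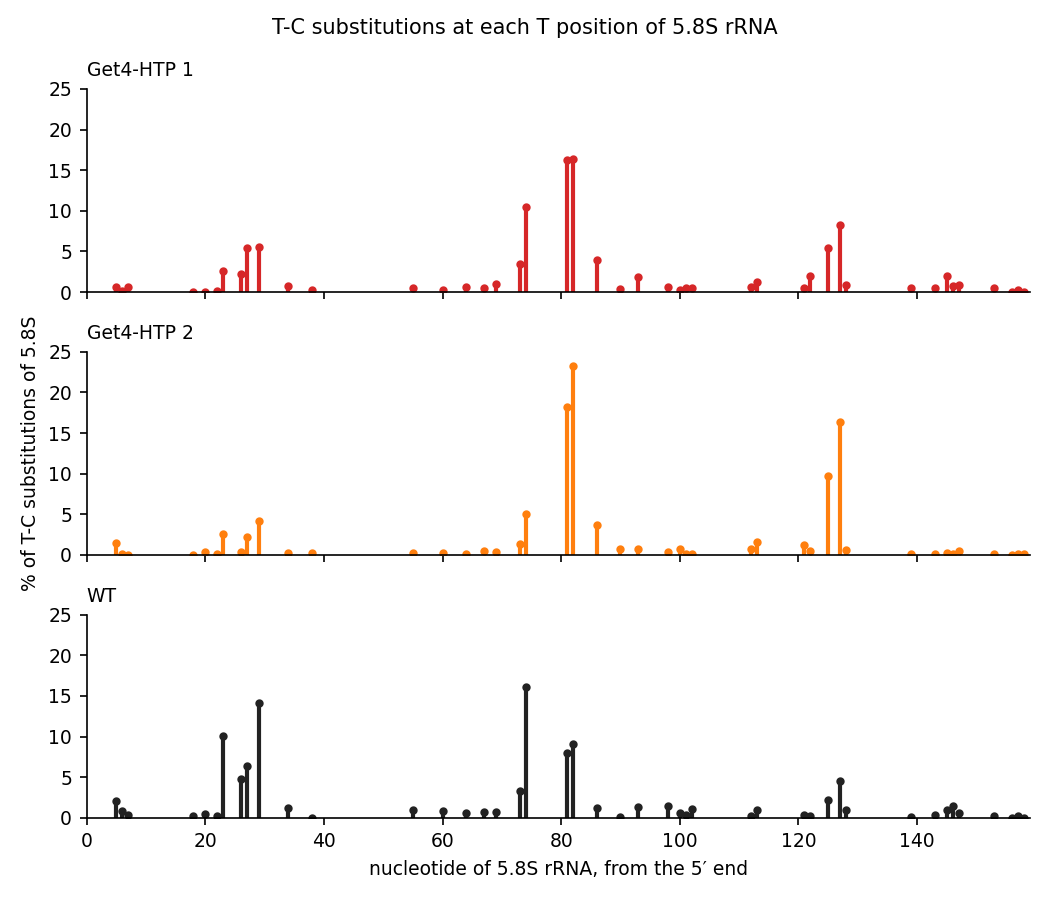
Share of all T-C substitutions of 5.8S rRNA (y axis, percent) at each of its 44 T positions (x axis, nucleotide from the 5′ end) in Get4-HTP 1, Get4-HTP 2 and WT from top to bottom. Position 82 is the highest in both Get4-HTP libraries and position 74 in WT, where position 29 is next.

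The 5 most frequently substituted positions together held 56.8% of the 5.8S substitutions in Get4-HTP 1, 72.5% in Get4-HTP 2 and 57.3% in WT. Positions 74, 81 and 82 were among these 5, ranked by number of substitutions, in every library. Ranked by the share of reads substituted, the positions in the top 5 of every library were 29, 82 and 127. Most other T positions were rarely substituted: among those with at least 100 hits, the median share of substituted reads was 3.91% in Get4-HTP 1 (40 positions), 2.13% in Get4-HTP 2 (36 positions) and 4.46% in WT (34 positions).

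The share of reads substituted at a T does not depend on the scale or directly on the height of the profile. Because each retained read carries a single substitution, the share does depend on which other T positions the same reads cover. It was compared at the 30 T positions of 5.8S with at least 100 hits in every library, and a position was counted when the Wilson intervals of both Get4-HTP libraries lay on the same side of that of WT without overlap. Positions 81 and 82 were higher in both Get4-HTP libraries, and position 74 was lower. Over the 168 T positions of RDN37 with this coverage, those of 5.8S included, 1.79% were higher (3 positions) and 4.17% were lower (7 positions). The 1 lower position among the 30 of 5.8S was thus no more frequent than over RDN37. Positions 81 and 82 were 2 of the 3 higher ones.

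These positions lie in the middle block, and its sequence shows how close they are.

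middle block: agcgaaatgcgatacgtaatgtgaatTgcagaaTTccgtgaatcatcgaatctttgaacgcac

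The capitals are positions 74, 81 and 82, in this order. At T74C the substituted reads were 139 of 604 in Get4-HTP 1 (23.0%, 19.8 to 26.5%), 58 of 497 in Get4-HTP 2 (11.7%, 9.14 to 14.8%) and 138 of 333 in WT (41.4%, 36.3 to 46.8%). At T81C they were 216 of 698 in Get4-HTP 1 (30.9%, 27.6 to 34.5%), 210 of 615 in Get4-HTP 2 (34.1%, 30.5 to 38.0%) and 69 of 346 in WT (19.9%, 16.1 to 24.5%). At T82C they were 218 of 699 in Get4-HTP 1 (31.2%, 27.9 to 34.7%), 268 of 623 in Get4-HTP 2 (43.0%, 39.2 to 46.9%) and 78 of 346 in WT (22.5%, 18.5 to 27.2%). Positions 74 and 82 thus had Get4-HTP 1 between WT and Get4-HTP 2, with all intervals apart, whereas at position 81 the intervals of the Get4-HTP libraries overlapped.

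**Figure D5:**
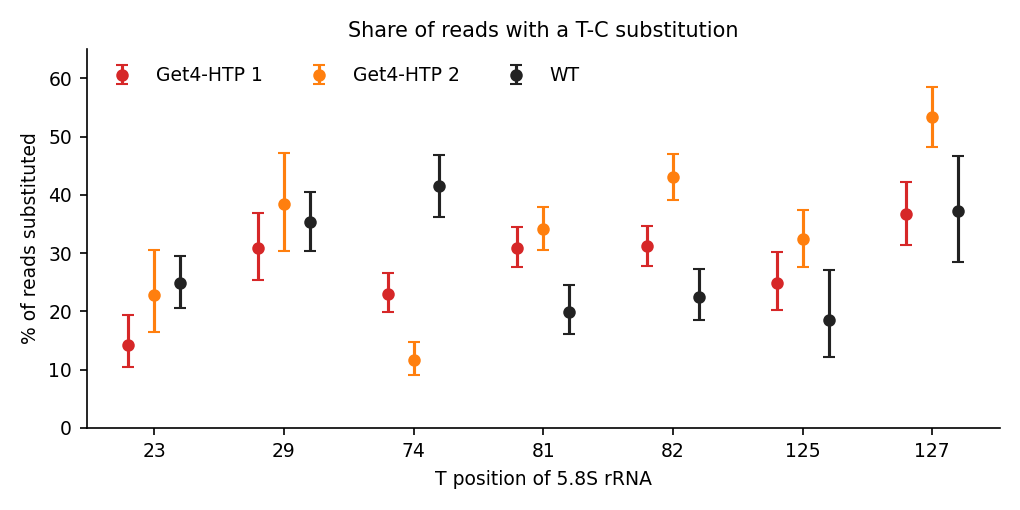
Share of the reads over a T that carried a T-C substitution there (y axis, percent), with 95% Wilson intervals, at 7 T positions of 5.8S rRNA (x axis) in Get4-HTP 1, Get4-HTP 2 and WT. Position 74 is lower and positions 81 and 82 are higher in both Get4-HTP libraries than in WT, and at the other positions the interval of at least 1 Get4-HTP library overlaps that of WT.

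Within the middle block the difference can be expressed as a change of preferred position. Positions 81 and 82 together held 434 of its 763 substitutions in Get4-HTP 1 (56.9%, 53.3 to 60.4%), 478 of 645 in Get4-HTP 2 (74.1%, 70.6 to 77.3%) and 147 of 396 in WT (37.1%, 32.5 to 42.0%). For each substitution at position 74, there were 3.12 at positions 81 and 82 in Get4-HTP 1, 8.24 in Get4-HTP 2 and 1.07 in WT. Because each retained read carries a single substitution, a larger share at positions 81 and 82 leaves less for position 74 in reads that cover all of them, and these changes are not independent of each other. Positions 74, 81 and 82 had also been chosen for their separation from WT in the same reads. The values of the middle block thus restate that difference and are no further support for it.

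None of the leading positions of the outer blocks was separate from WT in both Get4-HTP libraries. At T127C, 110 of 300 reads were substituted in Get4-HTP 1 (36.7%, 31.4 to 42.3%), 189 of 354 in Get4-HTP 2 (53.4%, 48.2 to 58.5%) and 39 of 105 in WT (37.1%, 28.5 to 46.7%). The interval of Get4-HTP 2 was above that of WT, and that of Get4-HTP 1 overlapped it. At T29C the shares were 30.8% in Get4-HTP 1, 38.4% in Get4-HTP 2 and 35.3% in WT, with all intervals overlapping. Position 29 thus had fewer hits in Get4-HTP, as did the whole 5′ block, and its share of substituted reads could not be separated from that of WT. Some other positions of the outer blocks were separate from WT in 1 Get4-HTP library. At position 23 the share was 14.3% (10.4 to 19.3%) in Get4-HTP 1 and 24.8% (20.5 to 29.6%) in WT. At position 27 it was 29.9% (24.4 to 35.9%) in Get4-HTP 1 and 15.9% (12.5 to 20.2%) in WT. In Get4-HTP 2, position 5 was above WT (14.3% against 5.71%) and position 26 below it (3.08% against 11.9%). Position 125 in the 3′ block was also above WT in Get4-HTP 2, with 32.4% (27.7 to 37.5%) against 18.4% (12.1 to 27.0%). In Get4-HTP 1 it was at 24.8% (20.2 to 30.1%), which overlapped WT.

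Sharp steps were present in the profiles. The 8 largest steps between neighbouring nucleotides, averaged over the libraries after scaling to the maximum, had the same sign in all 3 libraries, which is in part a result of choosing them on the mean. The largest rise lay between nucleotides 64 and 65, and Get4-HTP 1 had 209 hits before and 436 after it, Get4-HTP 2 had 102 and 260, and WT had 154 and 283. The rise into the 3′ block lay between nucleotides 110 and 111, where Get4-HTP 1 had 90 hits before and 275 after it, Get4-HTP 2 had 117 and 314, and WT had 32 and 89. The largest drop lay between nucleotides 152 and 153, where Get4-HTP 1 had 205 hits before and 59 after it, Get4-HTP 2 had 157 and 48, and WT had 85 and 27. All 8 steps followed C, T or G, which make up 74.1% of the sequence. The authors had trimmed the RNA with RNace-IT, a mixture of RNase A, which cuts after pyrimidines, and RNase T1, which cuts after G.

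Few reads extended into the spacers. Over the 10 nucleotides of ITS1 next to 5.8S the mean was 16.5 hits in Get4-HTP 1, 10.4 in Get4-HTP 2 and 13.9 in WT, which was 7.39%, 8.80% and 4.41% of the mean over the first 10 nucleotides of 5.8S. The nucleotide directly upstream of 5.8S had 51 hits against 209 at nucleotide 1 in Get4-HTP 1 (24.4%, 19.1 to 30.7%), 40 against 114 in Get4-HTP 2 (35.1%, 26.9 to 44.2%) and 49 against 302 in WT (16.2%, 12.5 to 20.8%). The interval of Get4-HTP 2 lay above that of WT, and that of Get4-HTP 1 overlapped it. From the third nucleotide upstream on, at most 17 hits were found in Get4-HTP 1, 9 in Get4-HTP 2 and 11 in WT.

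At the 3′ end, the last nucleotide of 5.8S had 25 hits in Get4-HTP 1, 16 in Get4-HTP 2 and 10 in WT, and the first nucleotide of ITS2 had 8, 1 and 7. Over 10 nucleotides the mean of ITS2 was 7.7 hits in Get4-HTP 1, 1.9 in Get4-HTP 2 and 6.4 in WT, against 114, 93.8 and 47.0 on the side of 5.8S. The difference between strains at this end rests on few reads.

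The 5′ block contains the sequence of 5.8S that had the longest complementarity to 25S. Over at least 8 Watson-Crick pairs, 4 matches were found, and the longest comprised 10 pairs between nucleotides 4 to 13 of 5.8S and 410 to 419 of 25S. It is shown because it was the longest.

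5.8S 4 to 13: ctttcaacaa
25S 410 to 419: ttgttgaaag

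The side of 5.8S had a mean of 228 hits per nucleotide in Get4-HTP 1, 120 in Get4-HTP 2 and 323 in WT, and that of 25S had 30.4, 17.7 and 110. As shares of RDN37 outside the stretch, these correspond to ratios to WT of 0.376 and 0.293 for 5.8S and of 0.148 and 0.127 for 25S. The other matches did not show one pattern. Nucleotides 51 to 59 of 5.8S had ratios of 0.689 and 0.406, and their partner at 481 to 489 of 25S had 2.46 and 6.28. Nucleotides 108 to 116 of 5.8S had 1.58 and 2.77, and their partner at 2179 to 2187 had 0.612 and 1.63. Nucleotides 13 to 20 of 5.8S had 0.367 and 0.290, and their partner at 1913 to 1920 had 0.897 and 0.626, so that here both sides were lower, by different amounts. Each match is a description of the sequence, and whether these RNAs were paired in the crosslinked material was not measured.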

How the data were processed

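PAR-CRAC libraries of Get4-HTP (2 libraries) and of WT (1 library) were analyzed. According to the methods and the processing notes of the submitters, the authors trimmed the reads, collapsed them by UMI, mapped them with Bowtie2 2.3.4.2 and filtered for exactly 1 T-C mutation per read; the genome build is not given in the sources used here. The deposited values are counts of hits, substitutions and deletions per nucleotide, made by the authors with pyPileup and not normalized. Reads without any substitution were thus absent, and substituted shares refer to the retained reads over a T.

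RDN37 was joined from its segments, with 4 repeated spacer nucleotides counted once. Hits were divided by the RDN37 hits outside nucleotides 1391 to 1454 of 25S, by all RDN37 hits, by the 18S hits or by mapped reads. Bins had 10 nucleotides, and 1% of the mean bin was added as a pseudocount. Wilson 95% intervals cover counting error only. The nucleotides named were the maxima, runs above 20% of the maximum, and the T positions among the top 5. The members, regions and limits were chosen with earlier results of these data known. In simulated data, 100% of the bins changed by a known fold were recovered. Calls in unchanged bins are not given here, so this value says nothing about false calls. Recovery of changes smaller than the simulated fold is not shown by it either. The authors describe the experiment as performed in 2 biological replicates. Alternatives concerned the scale, bin width, limits, minimum of hits, measure of correlation and each Get4-HTP library alone. Python 3.11.15, numpy 2.4.6, scipy 1.17.1, pandas 2.3.3 and matplotlib 3.10.9 were used.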

Additional observations from a re-analysis of the deposited data

How the results depend on the processing

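Of 77 alternative values computed for 20 results, 50 stayed within their limits, 26 moved, 1 became a call and 0 were reversed in sign. Most of these results are counts, percentages or ratios, which cannot change sign. The mean ratio of the 5.8S share, Get4-HTP over WT, was 0.897 outside the 25S stretch, 0.585 of all RDN37 hits, 0.666 with the reads of the file headers, 0.643 relative to 18S hits and 0.204 per 1000000 mapped reads, and 0.799 to 0.995 with 1 Get4-HTP library left out. The number of lower bins was 4, and 15 per 1000000 mapped reads, where 78.4% of all RDN37 bins were lower. It was 4 to 6 when 1 Get4-HTP library was left out, and the number of higher bins was then 0 to 4, with 4 without Get4-HTP 1. The correlation of the mean Get4-HTP profile with WT was 0.550 by Pearson's r, 0.318 by Spearman's rho and 0.396 to 0.708 with 1 library left out. The number of T positions lower in Get4-HTP was 1 at a minimum of 100 hits and 2 at minima of 50 and 20.

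The comparisons of blocks were added after the data had been seen. The middle block differed from WT by 9.12 percentage points in hits and by 10.5 in substitutions. With 1 library left out the difference was -29.4 to -21.6 points for the 5′ block, 8.41 to 9.84 for the middle block and 11.8 to 21.0 for the 3′ block. No paired analysis was possible because the strains share fewer than 2 replicate numbers.

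With 869 reads over 5.8S, the WT library limits each ratio, most of all in the 3′ block. The spread between WT libraries is unknown, and the parts of the tag, the PCR cycles and the run in the differences cannot be told apart. Get4-HTP 1 and WT share a run code, but the tag and the PCR cycles both differ between them.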
